A study of Mus musculus with 6 samples.

Results

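Chemokines are small secreted proteins that guide leukocytes, and their receptors are G protein-coupled receptors on the cells that respond. The genes described here are the chemokines and chemokine receptors found by symbol in RNA sequencing of liver endothelial cells from mice on a diet with an ordinary or a very high iron content. They were the rows of the deposited table whose symbol is Ccl, Cxcl, Ccr, Cxcr or Ackr followed by a number and at most 1 letter, together with Cx3cl1, Cx3cr1, Xcl1 and Xcr1. That gave 64 of the 39179 rows, with 60 distinct symbols, of which 42 were ligands, 18 were signalling receptors and 4 were atypical receptors. Expressed meant a level of at least 1 CPM, the reads of a gene scaled to the size of its library, in at least 3 of the 6 libraries. By that definition 17 genes were expressed: 11 ligands (Cxcl1, Cxcl9, Cxcl10, Cxcl11, Cxcl12, Cxcl16, Ccl2, Ccl5, Ccl6, Ccl9 and Ccl24), 3 signalling receptors (among them Ccr2 and Cxcr5) and 3 atypical receptors (Ackr2, Ackr3 and Ackr4).

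All animals were wild-type 129S6/SvEvTac males that entered a purified diet at 3 weeks of age and were sampled at 7 weeks, after 4 weeks on it. The control_iron diet contained 37 ppm iron as ferric citrate, and the high_iron diet contained 10000 ppm as carbonyl iron. Each group had 3 biological replicates; whether cells of several mice were pooled in a replicate was not stated. Endothelial cells were sorted as carrying the surface proteins CD31 and CD146 and lacking CD45, CD64, MHC class II and lineage markers. The comparison between the diets asks which transcripts of these cells differ after iron loading.

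The libraries held between 12963510 and 21663543 reads in genes, so that 3 reads corresponded to between 0.139 and 0.231 CPM. Of 9 general endothelial markers, among them Pecam1, Cdh5, Kdr and Mcam, all were expressed. Their summed level was 12019 to 12854 CPM in control_iron and 10848 to 11370 CPM in high_iron libraries. Mcam, the gene of CD146, was low, at 27.5, 10.9 and 16.7 CPM in control_iron and 7.60, 7.49 and 11.5 CPM in high_iron libraries. A positive log2 fold change (high_iron minus control_iron) was found for 1 of the 9. Transcripts of other liver cells were present as well. Summed levels of 13 Kupffer cell and macrophage markers were 59.7 to 161 CPM in control_iron and 241 to 455 CPM in high_iron libraries. Those of 9 stellate cell and fibroblast markers ran from 48.5 to 398 CPM and from 69.3 to 308 CPM. The 8 hepatocyte markers summed to 232 to 1074.5 CPM in control_iron and 527 to 1053 CPM in high_iron libraries. For 6 dendritic cell markers the sums were 293 to 355 CPM and 308 to 340 CPM. Only 3 of those 6 were expressed by the definition above, and the sums alone do not show dendritic cell RNA. Markers of T and NK cells summed to at most 4.93 CPM in any library, and those of neutrophils to at most 10.1 CPM.

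In the liver, chemokines displayed on the sinusoidal wall draw monocytes, lymphocytes and neutrophils out of the slow portal blood, and endothelial cells both make such ligands and remove them. Signalling receptors sit mainly on leukocytes. Atypical receptors bind chemokines without activating G proteins, and take them up for degradation or carry them across a cell. CXCL12, which retains blood cell precursors and patterns vessels, is shared between the signalling receptor CXCR4 and the atypical receptor ACKR3.

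Levels compared between genes are given as RPKM, the CPM per kilobase of gene length. Cxcl16 was the highest of the 17 genes, at 112 ± 7.57 RPKM in control_iron and 98.8 ± 5.22 RPKM in high_iron libraries (SD, n = 3 each, as for all values after ± in group means). Ackr2 followed at 55.5 ± 20.0 and 39.6 ± 3.92 RPKM, then Cxcl9 at 42.5 ± 12.98 and 18.9 ± 7.11 RPKM. Ackr4, Cxcl10 and Cxcl12 came next, with mean levels between 10.1 and 18.3 RPKM, and their libraries overlapped in that range. Ackr3 lay at 9.47 ± 5.93 RPKM in control_iron and 2.11 ± 0.512 RPKM in high_iron libraries, and each of the other 10 genes had a mean below 5 RPKM in both groups. Ackr3 was thus seventh in control_iron libraries, and in high_iron libraries its mean was below those of Ccl6 (4.28 RPKM) and Cxcl1 (3.31 RPKM). The signalling receptors had means of at most 1.33 RPKM in either group.

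**Figure D1:**
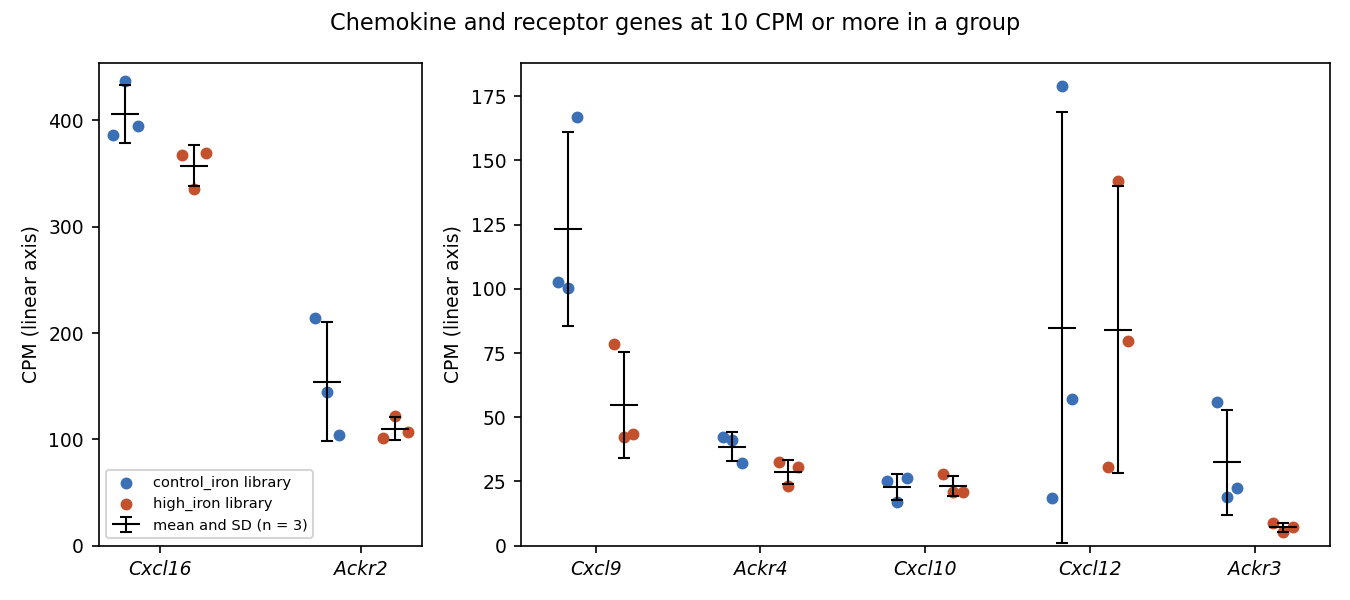
Levels of the 7 chemokine and receptor genes with a mean of at least 10 CPM in a group, on linear axes in CPM. Points are libraries (blue control_iron, red high_iron), and bars give the mean and SD of 3 libraries. The groups do not overlap for Cxcl16, Cxcl9 and Ackr3, and Cxcl12 spans 18.6 to 179 CPM within the control_iron group alone.

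Of the 17 expressed genes, Ackr3 was the only one that passed the test between diets, and it fell. With an adjusted p under 0.05, 0 of 17 rose and 1 of 17 fell, against 0.832% and 0.193% of the 12980 genes tested. The test was limma on log2(CPM + 1), with Benjamini-Hochberg adjustment over all genes tested. At an unadjusted p under 0.05 there were 2 of 17 higher (Ccl6 and Ccl24) and 4 lower (Ackr3, Cxcl9, Cxcl11 and Ackr4), together 6 of 17 against 12.1% of all genes tested. The 6 libraries separated by diet without overlap for 5 of 17 genes (17.9% of all genes tested). Ccl5 and Ccl6 were the 2 higher (9.46% of all genes), and Cxcl16, Cxcl9 and Ackr3 the 3 lower (8.44%). The median log2 fold change was 0.10 over the 17 genes and -0.0034 over all genes tested. On count tests of the recovered reads, edgeR called Ackr3 alone among them (0.162% of all genes tested were lower and 0.763% higher by edgeR). DESeq2 called Ackr3 and Cxcl9 lower (0.74% of all genes) and Ccl6 higher (2.53% of all genes). With the replicate number as a block in limma the same 3 genes were called, where 0.639% of all genes were lower and 2.46% higher.

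**Figure D2:**
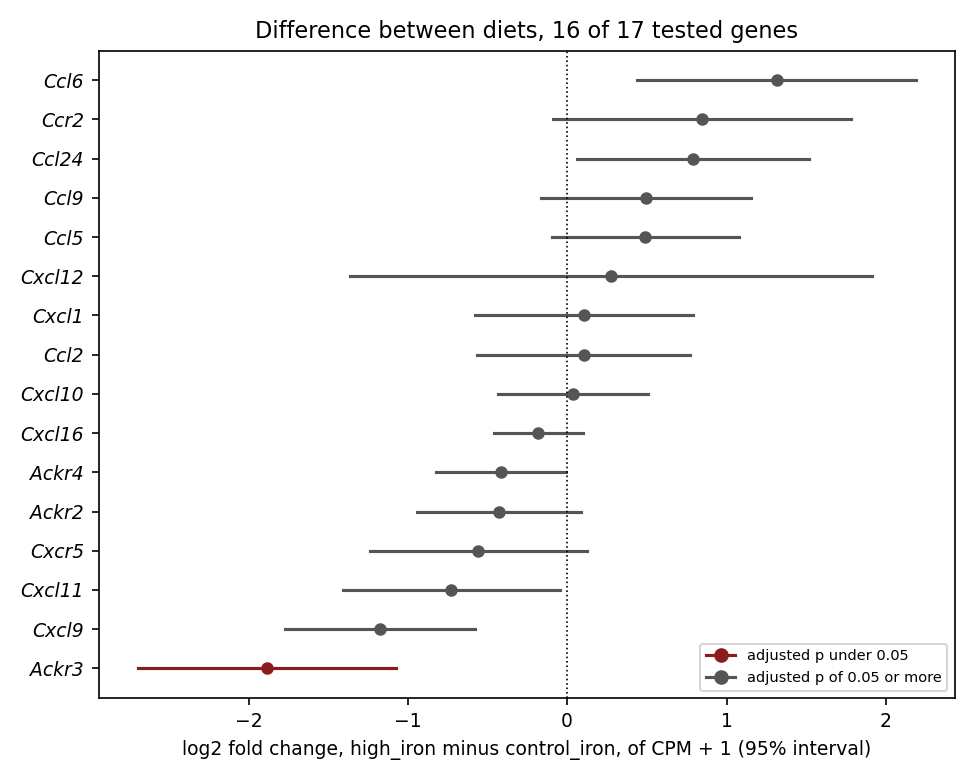
Log2 fold changes of CPM + 1 (high_iron minus control_iron) for 16 of the 17 tested genes, with 95% confidence intervals from limma. Ackr3 at -1.89 is the gene with an adjusted p under 0.05, and the widest interval is that of Cxcl12, from -1.36 to 1.91.

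Ackr3, the scavenging receptor for CXCL12 and CXCL11, is a plus-strand gene at chr1:90203980-90216751 (GRCm38, mm10). Its level was 55.8, 19.1 and 22.4 CPM in control_iron replicates 1 to 3, and 8.93, 5.42 and 7.30 CPM in high_iron replicates 1 to 3. Every high_iron library lay below every control_iron library, and control_iron replicate 1 stood well above the rest. The mean fell 4.50-fold, with a log2 fold change of -1.89 ± 0.36 (SE) and an adjusted p of 0.0451 by limma (95% interval -2.70 to -1.08). Over the 14 alternatives the adjusted p ran from 3.27e-06 to 0.198. The 6 markers of larger vessels summed to 647, 586 and 562 CPM in control_iron and 614, 530.0 and 521 CPM in high_iron libraries. They did not move as one in control_iron replicate 1: Vwf was at 138 CPM there against 15.0 to 31.7 CPM in the other 5 libraries, Gja5 and Sox17 were also highest there, Selp and Efnb2 were not, and Gja4 was lowest there. Between the diets, Sox17 (197, 155 and 194 against 154, 143 and 139 CPM) and Efnb2 (102, 83.1 and 117 against 77.3, 67.7 and 73.3 CPM) were lower without overlap. That held for 8.44% of all genes tested, and neither passed limma's threshold. Vwf, Selp, Gja5 and Gja4 overlapped, and Gja4 had the higher mean in high_iron libraries. The part of larger vessels in the fall of Ackr3 was not tested. Without control_iron replicate 1 the log2 fold change of Ackr3 was -1.42 and the adjusted p 0.0243 by limma. With each other library left out in turn, the log2 fold change lay between -2.17 and -1.72 and Ackr3 missed the threshold, with limma's adjusted p between 0.0508 (without control_iron replicate 2) and 0.198 (without high_iron replicate 3). In bulk RNA a smaller share of cells with a transcript and less transcript per cell cannot be told apart, here and in all results that follow.

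The ligand that ACKR3 removes, Cxcl12, did not differ detectably. It measured 18.6, 179 and 57.1 CPM in control_iron and 30.6, 142 and 79.6 CPM in high_iron libraries, replicates 1 to 3 in that order. Libraries of the same diet differed by several-fold, and the groups overlapped over nearly the whole range. The log2 fold change was 0.28 ± 0.73 (SE; 95% interval -1.36 to 1.91, limma adjusted p = 0.897), an interval that holds a 2-fold difference in either direction. Its level followed transcripts of other liver cells, among them those of stellate cells and fibroblasts. Ordered from low to high, the 6 libraries ranked the same way for Cxcl12 as for the summed markers, which were 48.5, 398 and 185 CPM in control_iron and 69.3, 308 and 204 CPM in high_iron libraries. Dcn made up most of that sum (267 of 398 CPM in control_iron replicate 2) and gave that order by itself. None of the other 7 tested markers gave exactly that order, though all had replicate 1 of each diet lowest and replicate 2 of each diet highest. The ratio of Cxcl12 to the stellate cell and fibroblast marker sum stayed between 0.308 and 0.460 over the 6 libraries. The same order was also given by the 8 hepatocyte markers, so it is not particular to stellate cells. They summed to 232, 1074.5 and 677 CPM in control_iron and 527, 1053 and 850 CPM in high_iron libraries. The contribution of stellate cell or hepatocyte RNA to the Cxcl12 level was not tested. Cxcr4, the signalling receptor for CXCL12, was below the expression limit in every library, between 0.0929 and 0.626 CPM.

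Ackr2 and Ackr4, the scavengers of inflammatory CC chemokines and of the lymphoid chemokines CCL19, CCL21 and CCL25, were expressed throughout and did not pass the test. Ackr2 measured 214, 145 and 104 CPM in control_iron and 101, 122 and 107 CPM in high_iron libraries, and the groups overlapped. Its log2 fold change was -0.43 ± 0.23 (SE; limma adjusted p = 0.485). Ackr4 measured 42.4, 41.3 and 32.1 CPM in control_iron and 32.4, 23.4 and 30.4 CPM in high_iron libraries. Here the lowest control_iron library lay just under the highest high_iron library, and the log2 fold change of -0.41 ± 0.18 (SE) had an unadjusted p of 0.046 and an adjusted p of 0.401 by limma. A second row named Ackr4, with an identifier absent from GENCODE M21, stayed below 0.4 CPM in all libraries. Acad11, transcribed from the other strand, covers 8.90% of the exon length of the expressed Ackr4 row, and the library kit does not mark strand.

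Ackr1, the gene of another atypical receptor, stands in the deposited table under its older symbol Darc (ENSMUSG00000037872) and so fell outside the symbol rule; it was added after its values were seen. It encodes the Duffy antigen receptor, which carries chemokines on erythrocytes and across the endothelium of venules. Darc measured 519, 472 and 647 CPM in control_iron and 379, 288 and 346 CPM in high_iron libraries. The libraries of the diets did not overlap. The log2 fold change of -0.69 ± 0.16 (SE) did not pass limma's threshold (adjusted p = 0.0951). It did pass with DESeq2 (adjusted p = 0.00699) and with the replicate number as a block in limma (adjusted p = 0.0351). When limma was run without 1 library, the adjusted p was 0.0837 to 0.369. Its exons overlap Cadm3 on the same strand over 25.7% of their length, and a Cadm3 transcript matches 62.3% of the Ackr1 transcript at 99.0% identity, so reads of the 2 genes are hard to tell apart and the Darc values are uncertain.

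Cxcl9, Cxcl10 and Cxcl11, the interferon-inducible ligands of the T cell receptor CXCR3, lie side by side on chromosome 5 between 92321347 and 92365485, and all 3 were expressed. Their stretches of 250 bases before the start of transcription are shown for the pair with an entry in the RefSeq table (GRCm38.p6), together with that of Ackr3, the gene that fell. They are written 5′ to 3′ on the strand of the gene. Capitals mark matches, on either strand, to an interferon response element (GAAA, any 2 bases, GAAA), an NF-kB site (GGGANTTCC, or GGGA, any base, TTTCC), a GAS element (TTCNNNGAA) or an antioxidant response element (TGACNNNGC).
Cxcl9, chr5:92328080-92328329, minus strand: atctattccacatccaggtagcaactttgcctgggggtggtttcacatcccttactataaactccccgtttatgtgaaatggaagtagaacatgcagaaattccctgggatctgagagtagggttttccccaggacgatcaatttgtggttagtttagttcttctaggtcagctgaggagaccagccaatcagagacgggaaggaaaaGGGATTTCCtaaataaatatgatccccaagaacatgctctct
Cxcl10, chr5:92348890-92349139, minus strand: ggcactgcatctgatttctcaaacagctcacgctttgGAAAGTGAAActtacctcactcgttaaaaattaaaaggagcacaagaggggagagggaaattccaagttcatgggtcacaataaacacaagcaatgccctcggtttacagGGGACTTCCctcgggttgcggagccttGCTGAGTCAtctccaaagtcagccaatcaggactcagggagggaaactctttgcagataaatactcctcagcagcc
Ackr3, chr1:90203730-90203979, plus strand: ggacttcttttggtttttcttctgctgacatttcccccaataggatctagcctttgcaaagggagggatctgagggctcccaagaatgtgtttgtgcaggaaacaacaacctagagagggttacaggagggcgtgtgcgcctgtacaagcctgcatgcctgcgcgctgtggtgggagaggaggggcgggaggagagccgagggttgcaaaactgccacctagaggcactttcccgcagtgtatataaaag
The Cxcl9 stretch held 1 NF-kB match, GGGATTTCC, beginning 42 bases before the start. In the Cxcl10 stretch the matches were an interferon response element, GAAAGTGAAA, an NF-kB site, GGGACTTCC, and an antioxidant response element on the opposite strand, written GCTGAGTCA in the gene's direction, which begin 213, 103 and 76 bases before the start. The Ackr3 stretch held none of these letters. Of 32536 such stretches in the table, 2.98% hold the interferon response element, 1.44% and 0.36% the shorter and the longer NF-kB spelling, 7.04% the GAS element and 10.2% the antioxidant response element. The shorter NF-kB spelling was added after the sequences had been seen, and no 2 matches overlap in these 3 stretches. Among the 10 expressed genes with an entry, 3 held an NF-kB spelling, the other being Cxcl1 with GGGAATTTCC.

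Cxcl9 was lower on the high-iron diet by a little more than 2-fold without passing the main threshold. It measured 103, 100.4 and 167 CPM in control_iron and 78.7, 42.3 and 43.6 CPM in high_iron libraries, a mean of 123 ± 37.7 against 54.9 ± 20.6 CPM. All high_iron libraries lay below all control_iron libraries, with high_iron replicate 1 the nearest to them. The log2 fold change was -1.17 ± 0.27 (SE; 95% interval -1.77 to -0.58) with an adjusted p of 0.0826 by limma, and the call depended on the method, since DESeq2 gave an adjusted p of 0.00245. Without high_iron replicate 1 the log2 fold change was -1.46 and limma's adjusted p 0.0417, and over all 14 alternatives the adjusted p ran from 0.00245 to 0.342.

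Cxcl10 showed no such difference, at 25.1, 17.1 and 26.5 CPM in control_iron and 27.9, 20.99 and 21.1 CPM in high_iron libraries. The groups overlapped, and the log2 fold change was 0.04 ± 0.21 (SE, 95% interval -0.43 to 0.51, limma adjusted p = 0.955). Per length, Cxcl9 exceeded Cxcl10 by 2.14, 3.07 and 3.29 times in control_iron libraries and by 1.48, 1.05 and 1.08 times in high_iron libraries. The ratio was higher in each control_iron library than in any high_iron library, with p = 0.10 in a two-sided exact permutation test, the smallest value that 3 against 3 libraries allow. Cxcl11 was low, at 2.29, 2.74 and 5.30 CPM in control_iron and 2.31, 1.24 and 1.31 CPM in high_iron libraries, so that high_iron replicate 1 lay just above the lowest control_iron library. Its log2 fold change was -0.73 ± 0.31 (SE; limma adjusted p = 0.384). GENCODE M21 lists Cxcl11 as a polymorphic pseudogene on the reference strain, and 41.7% of its exon length overlaps Gm2673 on the opposite strand, which leaves its reads uncertain. Their receptor gene Cxcr3 was at 0.513 to 1.35 CPM and was not tested.

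Cxcl16, the transmembrane ligand of the lymphocyte receptor CXCR6 that is cut free by the protease ADAM10, differed little between the diets. It measured 386, 437 and 394 CPM in control_iron and 367, 336 and 370 CPM in high_iron libraries. The groups did not overlap, but the means of 406 ± 27.4 and 358 ± 18.9 CPM were only 1.13-fold apart, with a log2 fold change of -0.18 ± 0.12 (SE; 95% interval -0.46 to 0.10, limma adjusted p = 0.579). A change of 2-fold or more in either direction lies outside that interval. Exons of Zmynd15 on the opposite strand cover 18.3% of its exon length. The other membrane-bound chemokine, Cx3cl1 (fractalkine), was at most 0.418 CPM in any library.

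The remaining expressed genes, most of them known from myeloid cells and lymphocytes, were each under 20 CPM. Ccl6, a CC chemokine of mouse macrophages and neutrophils, measured 1.40, 4.46 and 4.50 CPM in control_iron and 15.5, 6.37 and 8.15 CPM in high_iron libraries. Every high_iron library was above every control_iron library, and high_iron replicate 1 was the highest. The log2 fold change of 1.31 ± 0.39 (SE) did not pass limma's threshold (adjusted p = 0.195) and passed that of DESeq2 (adjusted p = 0.0408), within a range of 0.036 to 0.452 over the alternatives. In the same libraries the 13 Kupffer cell and macrophage markers summed to 59.7, 161 and 84.8 CPM in control_iron and 455, 241 and 326 CPM in high_iron replicates 1 to 3. Of the 12 that were tested, 3 rose by limma (Clec4f, Marco and Csf1r), against 0.832% of all genes tested. All 12 had an unadjusted p under 0.05 (12.1% of all genes tested) and were higher, by a median log2 fold change of 1.76. None of the 13 was at 0 in any library, and Fcgr1, which encodes the CD64 that the sort selected against, averaged 0.353 CPM on the control_iron and 1.26 CPM on the high_iron diet. Relative to that sum Ccl6 was 0.0347 ± 0.016 in control_iron and 0.0285 ± 0.0048 in high_iron libraries, and the part of macrophage RNA in its level was not tested.

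**Figure D3:**
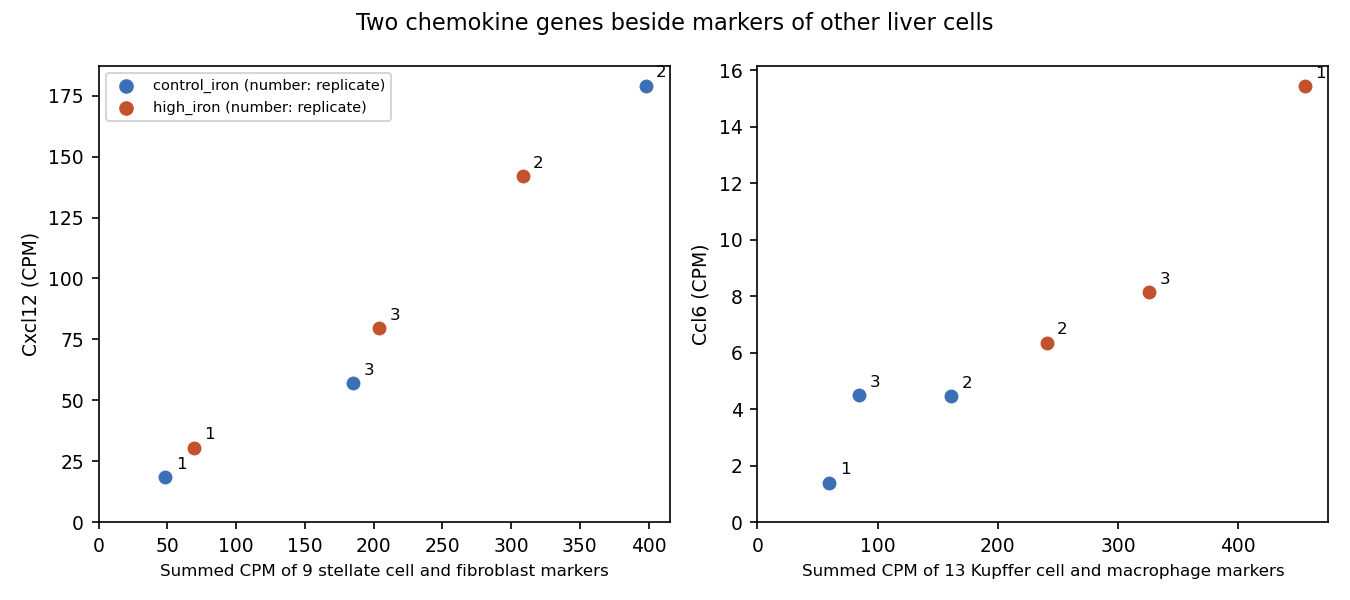
Level of Cxcl12 against the summed level of 9 stellate cell and fibroblast markers (left) and of Ccl6 against that of 13 Kupffer cell and macrophage markers (right), in CPM on linear axes, 1 point per library with its replicate number. The diets are intermixed along the stellate axis, from 48.5 to 398 CPM, and separate along the macrophage axis, where high_iron replicate 1 is highest for both values (455 CPM for the markers and 15.5 CPM for Ccl6).

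Ccl24, which attracts eosinophils through CCR3, measured 0.104, 1.02 and 0.513 CPM in control_iron and 2.41, 1.77 and 0.846 CPM in high_iron libraries. Control_iron replicate 2 lay above high_iron replicate 3, and the log2 fold change of 0.79 ± 0.32 (SE) had an adjusted p of 0.378 by limma. Ccl9, a neighbour of Ccl6 on chromosome 11, had means of 2.30 ± 1.06 and 3.49 ± 0.565 CPM (log2 fold change 0.49, limma adjusted p = 0.524). Ccl5, the T cell and NK cell chemokine RANTES in the same cluster from 83525778 to 83664683, measured 0.987, 1.11 and 1.20 CPM in control_iron and 2.93, 1.36 and 1.77 CPM in high_iron libraries. Its groups did not overlap, with all high_iron libraries above the highest control_iron library, and the log2 fold change was 0.49 ± 0.26 (SE; limma adjusted p = 0.481).

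Ccr2, the monocyte receptor for CCL2, measured 1.45, 0.836 and 0.570 CPM in control_iron and 6.01, 1.18 and 1.69 CPM in high_iron libraries, where replicate 1 alone accounted for most of the difference. Without high_iron replicate 1 its log2 fold change was 0.34, against 0.85 ± 0.42 (SE; limma adjusted p = 0.449) with it. Monocyte markers summed to 11.8 to 15.8 CPM in control_iron and 10.2 to 18.2 CPM in high_iron libraries, with high_iron replicate 1 again the highest.

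Ccl2, the main attractant of monocytes, and Cxcl1, a neutrophil attractant, were low on both diets. Ccl2 had means of 2.34 ± 1.04 and 2.49 ± 0.610 CPM, and Cxcl1 of 3.06 ± 1.79 and 3.14 ± 0.409 CPM. Their groups overlapped, with log2 fold changes of 0.10 (95% interval -0.57 to 0.77) and 0.11 (-0.58 to 0.79) and adjusted p-values of 0.908 and 0.907 by limma. Cxcr5, the B cell receptor for CXCL13, had means of 3.75 ± 1.94 and 2.09 ± 0.476 CPM (log2 fold change -0.56, limma adjusted p = 0.495). Markers of B cells and plasma cells lay the other way round, with sums of 3.58 to 7.40 CPM in control_iron and 10.7 to 18.7 CPM in high_iron libraries. Of 4 tested markers of that list, 1 rose by limma (Ighm), against 0.832% of all genes tested.

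**Figure D4:**
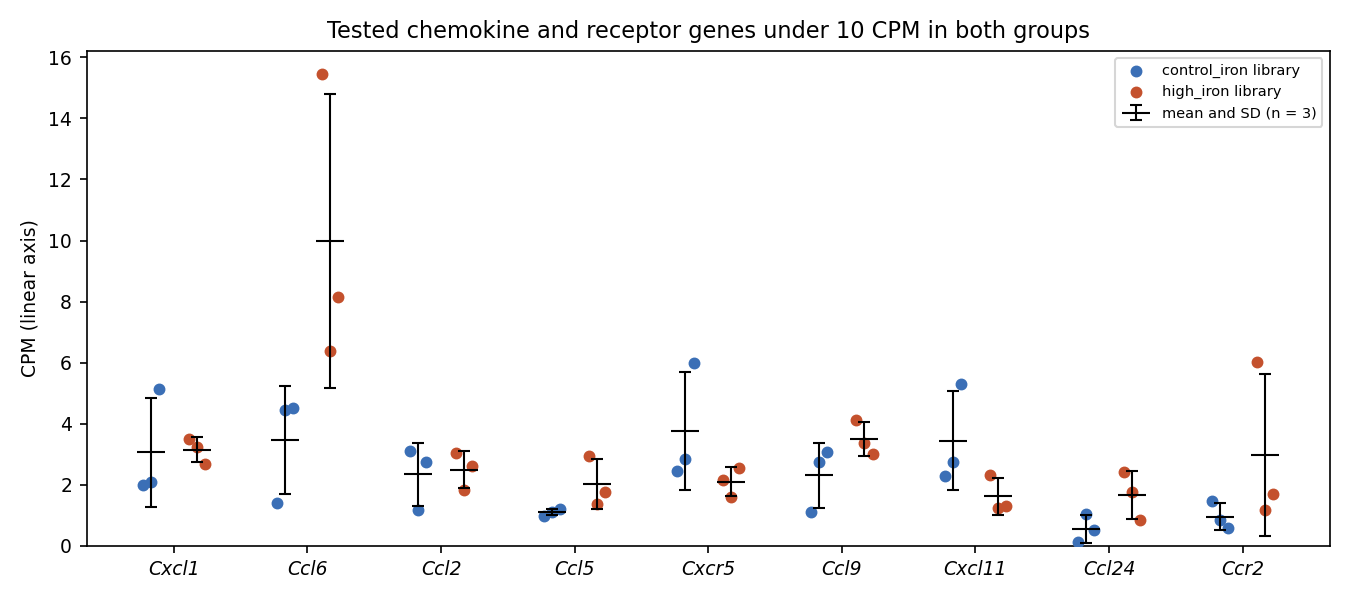
Levels of 9 of the 10 tested genes with a mean under 10 CPM in both groups, in CPM on a linear axis. Points are libraries (blue control_iron, red high_iron), and bars give the mean and SD of 3 libraries. High_iron replicate 1 is the highest point for Ccl6 (15.5 CPM) and Ccr2 (6.01 CPM).

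The 47 rows that were not tested comprised 31 ligands, 15 signalling receptors and 1 atypical receptor. Of these, 11 were at 0 in every library, among them Ccl1, Ccl17, Ccl26, Ccr8, Cxcl15 and Cxcr1. A further 12 reached 1 CPM in at least 1 library: the ligands Ccl3, Ccl4, Ccl25, Cxcl13 and Cxcl14 and the receptors Ccr3, Ccr7, Ccr9, Cx3cr1, Cxcr3, Cxcr6 and Xcr1. Over the 6 libraries the ligands ran from 0 to 1.80 CPM (Ccl3), 0 to 1.13 CPM (Ccl4), 0.312 to 1.14 CPM (Ccl25), 0.325 to 2.77 CPM (Cxcl13) and 0 to 1.23 CPM (Cxcl14). The receptors ran from 0.171 to 2.36 CPM (Ccr3), 0 to 1.38 CPM (Ccr7), 0.325 to 1.04 CPM (Ccr9), 0 to 2.57 CPM (Cx3cr1), 0.513 to 1.35 CPM (Cxcr3), 0.0929 to 1.33 CPM (Cxcr6) and 0.0519 to 1.38 CPM (Xcr1). Cx3cr1, the fractalkine receptor of monocytes and macrophages, had 0, 0 and 2 reads in control_iron and 50, 5 and 10 reads in high_iron libraries. Ccl3, an inflammatory chemokine of myeloid cells, had 4, 1 and 0 reads against 35, 20 and 5 reads. Cxcl14 had 0, 5 and 1 reads against 24, 9 and 12 reads. Ccr7, which brings lymphocytes and dendritic cells to lymphoid tissue, was at 0 to 0.456 CPM in control_iron and 0.707 to 1.38 CPM in high_iron libraries. The values of these 4 genes, and of the rows named next, were picked out after they were seen, and no difference is drawn from them. Every high_iron library lay above every control_iron library in these 4 and in Ccr1 and Cxcl17, and below in Ccl7, Ccl27a and Ccr10. None of these last 5 reached 1 CPM in any library. Ccl27a, for example, was at 0.464 to 0.911 CPM in control_iron and 0.231 to 0.295 CPM in high_iron libraries. Rows without overlap were thus 9 of the 47 not tested. The share over all untested genes was not computed, so that count has no background.

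The neutrophil attractants Cxcl2, Cxcl3 and Cxcl5 did not exceed 0.513 CPM in any library, and Cxcr2 did not exceed 0.565 CPM. Lymphoid tissue chemokines were similarly scarce. Ccl19 stayed at or below 0.513 CPM and Ccl21a at or below 0.519 CPM, while the rows of Ccl21b and Ccl21c, near-copies of Ccl21a between which reads cannot be assigned with confidence, were at 0. Of 4 lymphatic endothelial markers, Pdpn was at most 0.0513 CPM and Mmrn1 at most 1.59 CPM, Prox1 was at 1.33 to 4.60 CPM, and Flt4, which sinusoidal cells also express, was at 1168 to 1786 CPM. Mmrn1 was at 0 to 0.208 CPM in control_iron and 0.308 to 1.59 CPM in high_iron libraries.

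Genes that work with chemokines were examined from lists that extend beyond the family. Of 30 tested genes of receptor signalling, such as G protein subunits, receptor kinases, arrestins and Rac regulators, 0 passed limma's threshold, 6 had an unadjusted p under 0.05, and edgeR called 0 and DESeq2 2, both higher. Over all genes tested, 12.1% had an unadjusted p under 0.05, and DESeq2 called 2.53% higher and 0.74% lower; the same shares apply to the lists that follow. The median log2 fold change of these 30 genes was 0.12. Gnai2, the inhibitory G protein subunit through which most chemokine receptors signal, was at 1494 ± 185 and 1455 ± 106 CPM, and the GTPase Rac1 at 789 ± 36.0 and 883 ± 31.9 CPM. The DESeq2 calls were Rac2 and Vav1, both used mainly by blood cells and both higher, at 3.06 ± 1.94 against 11.2 ± 3.17 CPM and 0.299 ± 0.424 against 2.71 ± 0.840 CPM. By limma their adjusted p-values were 0.0611 and 0.054, and both passed without control_iron replicate 2. Vav1 reached 1 CPM only in high_iron libraries, as did Dock2, and both are among the 6 genes with an unadjusted p under 0.05. They passed the expression filter through that group alone, which favours a rise, so no difference is drawn from these 2 genes. The macrophage markers given above were higher in the same libraries, and the part of macrophage RNA in these values was not tested.

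Of 19 tested genes that display or trim chemokines on the cell surface, 0 passed limma's threshold, 3 had an unadjusted p under 0.05, and edgeR called 0 and DESeq2 2. The median log2 fold change of this list was 0.12. Dpp4, the protease that inactivates CXCL12 and CXCL10 by trimming them, was at 1293 ± 205 and 1399 ± 125 CPM. Srgn, a secretory granule proteoglycan, was at 499 ± 175 and 460.2 ± 63.6 CPM. The genes that DESeq2 called were Cav1, the caveolar coat protein, and Ext1, an enzyme of heparan sulfate chain growth, both lower. Cav1 measured 78.2, 59.3 and 52.5 CPM in control_iron and 35.7, 31.2 and 36.1 CPM in high_iron libraries (limma adjusted p = 0.055). Ext1 measured 28.8, 28.6 and 29.8 CPM against 15.5, 17.3 and 20.6 CPM (limma adjusted p = 0.101). In both genes the groups did not overlap.

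Among 26 tested genes of the signals that induce chemokines, such as NF-kB and STAT factors and the receptors of TNF, interleukin 1 and interferons, 0 passed limma's threshold, 6 had an unadjusted p under 0.05, and edgeR and DESeq2 called 0. The median log2 fold change was 0.09. Tnfrsf1a, the main TNF receptor, was at 665 ± 31.2 and 697 ± 48.4 CPM, and Nfkbia, the NF-kB inhibitor that NF-kB itself induces, at 380 ± 49.9 and 354 ± 5.45 CPM.

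Besides Darc, 6 genes of the wider family were tested under other symbols and none passed by limma, edgeR or DESeq2. The platelet chemokine Pf4 was at 10.04 ± 4.45 and 7.02 ± 2.47 CPM and Ppbp at 1.63 ± 1.15 and 2.17 ± 1.00 CPM. Ccrl2, an atypical receptor that presents chemerin, was at 21.5 ± 0.614 and 23.8 ± 4.59 CPM, and the chemerin gene Rarres2 at 3.36 ± 2.76 and 2.96 ± 1.82 CPM. The cytokine Mif was at 5.34 ± 2.45 and 3.53 ± 0.552 CPM, and Pitpnm3, reported as a CCL18 receptor in humans, at 1.10 ± 0.291 and 0.478 ± 0.607 CPM. None of these 6 had an unadjusted p under 0.05.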

How the data were processed

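The members and gene lists were chosen with earlier results of these data known. The low-input cDNA kit named in the labels' protocols does not mark strand. STAR, HTSeq, edgeR and mm10 stand in the submitters' processing notes, and no source used here gives their versions, settings or annotation. The authors deposited a normalized signal named CPM and an RPKM table that equals CPM per kilobase. All 114253 values above 0 in the CPM table were whole multiples of 1 read within 0.001 read (100%), which gave the reads per gene.

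The main test was limma 3.58.1 (R 4.3.3) on log2(CPM + 1) with a variance trend, over 12980 genes with at least 1 CPM in at least 3 libraries, Benjamini-Hochberg adjusted, threshold 0.05. Fold changes on this scale understate those of low genes. edgeR 4.0.16 called 120 genes and DESeq2 1.42.0 called 424 on the recovered reads. Other alternatives were pseudocounts of 0.1 and 0.5, other filters, plain scaling, a replicate block and leaving out each library.

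Values in every library are given for genes called, with an unadjusted p under 0.05, without overlap or with at least 10 CPM in a group. Untested genes are named where they reached 1 CPM, and pathway lists by genes called or the 2 most abundant. Other genes named (Ccr2, Rac2, Vav1, Dock2, Cav1, Ext1, Cxcr4, Cx3cl1, Mcam and further low genes) were added after their values were seen. Positions come from GENCODE M21 (GRCm38), which holds 59 of the 64 rows. No near-identical transcript of another gene (95% identity over 50% of the length) was found for the 17 genes with BLAST+ 2.17.0. 1 tested receptor gene is included in the counts and not reported by name here.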

Additional observations from a re-analysis of the deposited data

How the results depend on the processing

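Over 14 alternatives, 208 of 229 recomputed log2 fold changes of the 17 genes kept their direction and their side of the threshold. The count of genes called lower, 1 in the main fit on all libraries, was 0 without a filter on low values (Ackr3 adjusted p = 0.140 by limma), 2 with DESeq2 and 0 to 1 with 1 library left out; without high_iron replicate 1 that single gene was Cxcl9 in place of Ackr3. It was 1 with Darc counted among the genes, an alternative chosen after seeing the data. The count called higher, 0, became 1 with DESeq2. Counts of receptor signalling genes (0) became 2 with DESeq2 and 0 to 2 with 1 library left out. Where 2 were called, they included Vav1, which passed the filter only through high_iron libraries. Counts of display and trimming genes (0) became 2 with DESeq2. Directions turned for 4 genes near 0: with 1 library left out, log2 fold changes ran from -0.52 to 1.08 for Cxcl12, from -0.15 to 0.15 for Cxcl10, from -0.076 to 0.45 for Cxcl1 and from -0.18 to 0.28 for Ccl2, and Cxcl12 was at -0.016 with edgeR and -0.0068 with DESeq2. The cause of these shifts was not tested. Counts over all genes tested, 133 in the main fit, were 34 without a filter, 424 with DESeq2 and 27 to 183 with 1 library left out.

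In the labels, same-numbered libraries share only a number. Deviations from the group means correlated by 0.128, 0.32 and 0.0625 between same-numbered libraries. Between libraries of different numbers the correlations ran from -0.388 to 0.198, the highest being that of control_iron replicate 3 with high_iron replicate 1. A shared origin of same-numbered libraries was not tested. With the replicate number as a block, 402 genes were called over all genes tested. Of the 17, 1 was higher (Ccl6) and 2 were lower (Ackr3 and Cxcl9). The lists gave 2 receptor signalling genes, 1 display and trimming gene (Cav1) and 1 inducing signal gene (Cebpb). Darc, outside the 17, was called lower as well. At the stricter filter 9 of the 17 genes could not be fitted. Depth limits the genes under about 1 CPM.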
